A study of Mus musculus with 12 samples.

Results

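Naive CD4+ T cells, which have not yet met their antigen, were set against 3 groups of antigen-experienced CD4+ T cells on 1-colour Agilent microarrays. Samples were chosen by their labels, and all 12 of the 12 arrays of the series entered, 9 from experienced and 3 from naive cells. The first experienced group, called cultured here, held Th17 cells differentiated in vitro from naive CD4+ T cells of B6.2d2 mice, which carry a transgenic T cell receptor for myelin oligodendrocyte glycoprotein (MOG). For the second, called transferred, such Th17 cells were given to Rag1-/- mice, which cannot make T or B lymphocytes, and recovered from the brain and spinal cord tissue (the central nervous system, CNS) when symptoms peaked in experimental autoimmune encephalomyelitis (EAE), a mouse disease used to study multiple sclerosis. The third, called immunised, held CD4+ T cells of C57BL/6 mice given the MOG35-55 peptide to induce EAE, likewise taken from the CNS at peak disease. Naive cells came from the spleen of B6.2d2 mice, so the immunised group differed from them in strain and T cell receptor as well as in history. Ages, the purity of the isolated cells and the number of mice per sample are not given in the labels. Replicates came from 3 independent experiments according to the series text, and p-values measure the spread between these samples.

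A naive T cell circulates between blood and lymphoid organs, led there by adhesion and chemokine receptors, and is held in a resting, long-lived state by transcription factors of the TCF, FOXO and KLF families. Recognition of antigen with costimulation sets off receptor signalling that activates AP-1, IRF4 and NF-kB factors, growth, division and a switch from oxidative metabolism towards glycolysis. The resulting effector cell makes cytokines, changes its homing receptors so that it can enter inflamed tissue, and takes up inhibitory receptors that restrain it. Th17 cells are the helper cells that make interleukin-17, and in EAE such cells enter the CNS.

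Every level below is a log2 signal minus the 75th percentile of its array, so 0 is the level of a fairly bright probe, and every difference is experienced minus naive. Of 18631 genes tested, 53.3% (9931) passed the test for the mean of the 3 experienced groups against naive cells, at a Benjamini-Hochberg adjusted p under 0.05 from 1 limma fit over all 12 arrays. Of all genes tested, 22.7% (4223) were called higher and 30.6% (5708) lower. The stricter class used below holds genes called in the same direction in each experienced group on its own, with no overlap between the 9 experienced and the 3 naive arrays. It held 1847 genes above naive in all 3 groups (9.91% of those tested) and 2382 below (12.8%). For every gene of the class the lack of overlap is thus fixed by the rule. Regardless of calls, all 9 experienced arrays lay above all naive arrays for 2405 of the genes tested and below them for 3382. The 3 comparisons share the naive arrays, so that a deviation of those arrays enters all of them. The shares of genes called and of genes in the class are the reference for the list counts below. The median difference over all genes was −0.15, and −0.11, −0.16 and −0.23 in the cultured, transferred and immunised groups.

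The share of probes well above background ran between 57.1% and 64.9% per array, and arrays of a group correlated across genes at 0.954 or more. The number of arrays per group, 3, limits the precision. Each of the 3 slides held 1 array of each group. Taken within slides 1, 2 and 3, the median difference of the 1847 higher genes was 2.35, 2.39 and 2.48 and that of the 2382 lower genes was −1.16, −1.30 and −1.52. These genes were chosen on the same arrays for lying beyond naive cells, so their direction within each slide was fixed by that choice. With the slide as a block, 1806 and 2287 genes lay above and below naive cells. An array's position on the slide was fixed by group, so these 2 cannot be told apart.

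Defining T cell genes were at high levels on all arrays, as the label of the cells requires. Cd4 had log2 levels of 4.91, 5.02 and 4.77 in cultured Th17 cells, 4.39, 4.29 and 3.94 in transferred cells, 4.41, 4.72 and 4.11 in the immunised group and 4.61, 4.56 and 4.39 in naive cells. Cd3e, a chain of the T cell receptor complex, lay at 5.29, 5.204 and 5.67 in cultured Th17 cells, 4.85, 4.99 and 4.43 in transferred cells, 5.05, 5.47 and 4.88 in the immunised group and 5.91, 5.77 and 5.85 in naive cells. The Cd4 difference was −0.017 ± 0.157 (SE; limma adjusted p = 0.938), and its other probe gave −0.45, −1.04 and −0.66 in the 3 groups. Cd3e was called lower by 0.75 ± 0.173 (adjusted p = 0.00421), although its levels in all groups remained among the high ones given here. Of the 9 T cell core genes tested, 0 were higher and 3 lower, and 2 of these, Cd247 and Lck, lay below naive cells in all 3 groups (0 without naive replicate 1 and 1 without cultured replicates 1 or 2 or naive replicates 2 or 3). Of all genes tested, 30.6% were lower, so 3 of 9 is near the general share. The median difference of the T cell core genes was 0.13, −1.05 and −0.71 in the cultured, transferred and immunised groups. It was thus negative in the CNS groups only. In bulk samples, fewer cells of a type and less RNA per cell cannot be told apart.

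Markers of other cells were present on the CNS arrays. The summed signal of 18 macrophage and monocyte genes was 5.08 to 13.3 in cultured Th17 cells, 611 to 936 in transferred cells, 447 to 1053 in the immunised group and 2.26 to 2.85 in naive cells, in units of each array's 75th percentile. Of these, 17 were tested and all 17 were called higher, 10 of them in all 3 groups. The neutrophil list summed to 83.9 to 96.2 in cultured Th17 cells, 89 to 243 in transferred cells, 515 to 641 in the immunised group and 103 to 214 in naive cells, and the dendritic cell list to 4.29 to 35.6 in cultured Th17 cells, 8.73 to 16.4 in transferred cells, 4.83 to 6.33 in the immunised group and 0.115 to 0.247 in naive cells. In cultured cells the macrophage genes C1qa, C1qc, Cd163 and Spi1 were not well above background on any array, and in naive cells 8 of the 18 were not. In naive cells 5 of the 10 neutrophil genes, Retnlg, Cxcr2, Mmp8, Ngp and Ltf, were likewise not above it. The naive neutrophil sum thus rests on the other members. The median difference of the neutrophil genes was 1.14, 4.65 and 9.58 in the cultured, transferred and immunised groups. Genes that macrophages also express are given below with their levels in cultured cells, and the part of these markers in the differences was not tested.

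**Figure D1:**
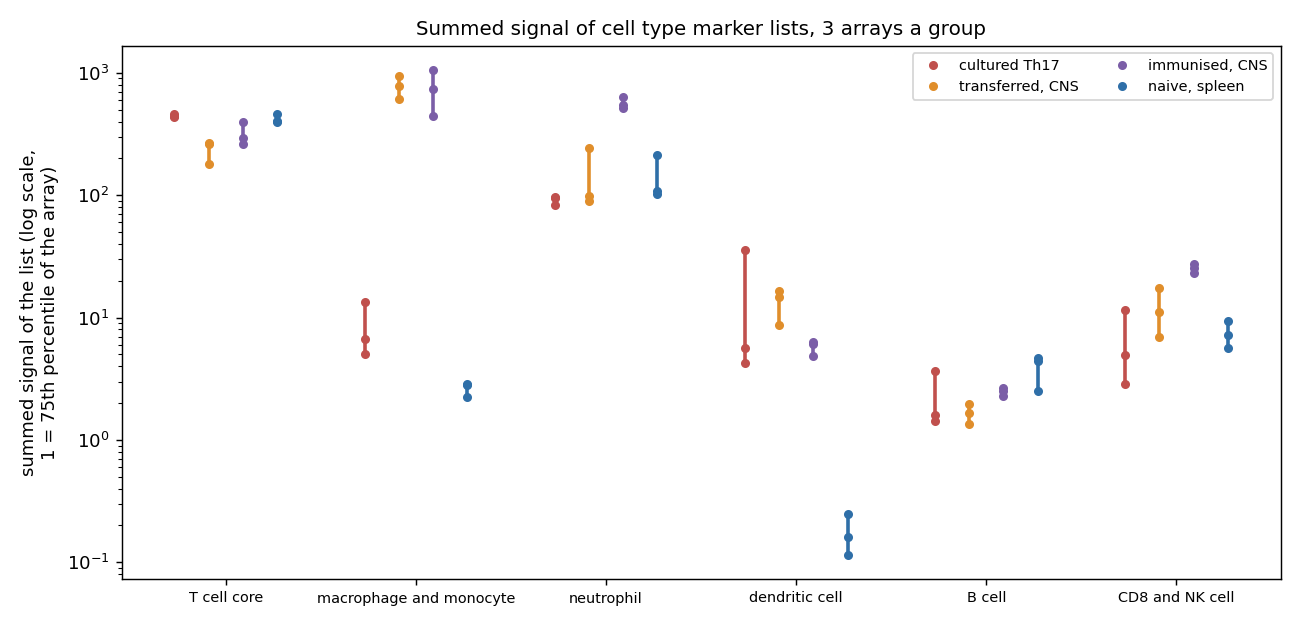
Summed signal of marker lists on a log axis, where 1 is the 75th percentile of the array; each group has its lowest, median and highest array, with cultured, transferred, immunised and naive cells from left to right. Macrophage and monocyte sums lay between 447 and 1053 on the 6 CNS arrays, 5.08 and 13.3 on cultured arrays and 2.26 and 2.85 on naive arrays. T cell core sums were 437 to 463 on cultured and 399 to 463 on naive arrays. They were 179 to 267 on transferred and 264 to 396 on immunised arrays. On naive arrays 5 of the 10 neutrophil genes were not well above background.

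The naive cell markers Dtx1, Dapl1 and Ccr9 were lower in every experienced group. Dtx1, which encodes the ubiquitin ligase Deltex1, a target and regulator of Notch signalling linked to T cell anergy, had log2 levels of −5.24, −4.32 and −3.51 in cultured Th17 cells, −2.73, −2.17 and −3.61 in transferred cells, 0.82, 1.24 and 0.22 in the immunised group and 4.33, 4.096 and 4.28 in naive cells. No experienced array reached the naive ones, and the immunised arrays stood between these and the cultured and transferred arrays, which overlapped. The differences were −8.59, −7.07 and −3.47 in the cultured, transferred and immunised groups, the smallest being 11.1-fold, with a mean difference of −6.38 ± 0.376 (SE; limma adjusted p = 7.77e-07). The 3 experienced groups also differed among themselves (moderated F test, adjusted p = 6.18e-05).

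Dapl1, which encodes a death-associated protein-like factor found in resting T cells, had levels of −8.21, −5.77 and −7.796 in cultured Th17 cells, −4.15, −4.04 and −6.699 in transferred cells, −1.98, −1.63 and −3.696 in the immunised group and 4.85, 3.75 and 4.44 in naive cells. It was well above background on 1 of 3 cultured and 2 of 3 transferred arrays, and every experienced array lay below every naive one. Its smallest difference, in the immunised group, was −6.78 (110-fold lower; adjusted p = 0.000123). Ccr9, the chemokine receptor that guides cells to the gut and thymus, lay at −5.88, −5.45 and −5.22 in cultured Th17 cells, −2.63, −2.95 and −3.63 in transferred cells, −1.87, 0.09 and −0.94 in the immunised group and 2.06, 2.5004 and 1.81 in naive cells. Its differences were −7.64, −5.195 and −3.03, in the same order of groups as for Dtx1, and the F test among experienced groups gave an adjusted p of 0.000118. For all 3 genes the cultured arrays were lowest on average and the immunised arrays nearest to naive cells.

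The opposite markers were Maf and Irf4. Maf, a transcription factor of cytokine-producing helper cells, had levels of 3.36, 2.36 and 4.003 in cultured Th17 cells, 3.36, 2.88 and 3.33 in transferred cells, 2.104, 2.53 and 2.21 in the immunised group and −0.76, −0.44 and −0.58 in naive cells. Irf4, a factor induced by T cell receptor signalling and required for Th17 differentiation, lay at 1.82, 2.56 and 3.08 in cultured Th17 cells, 2.07, 1.94 and 2.35 in transferred cells, 1.15, 2.36 and 1.37 in the immunised group and −1.95, −1.58 and −1.68 in naive cells. Both were above naive cells on all 9 experienced arrays, by 3.501 ± 0.283 and 3.81 ± 0.292 on average (SE; limma adjusted p = 5.42e-06 and 3.77e-06). No difference among the 3 experienced groups passed the F test for either (adjusted p = 0.0771 for Maf and 0.176 for Irf4). The probes lie, in the mm9 assembly of the array design, at chr5:121130278-121130337 for Dtx1, chr2:59342824-59342883 for Dapl1, chr9:123690334-123690393 for Ccr9, chr8:118227736-118227795 for Maf and chr13:30858532-30858591 for Irf4. Their place within exons or UTRs was not analysed here.

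**Figure D2:**
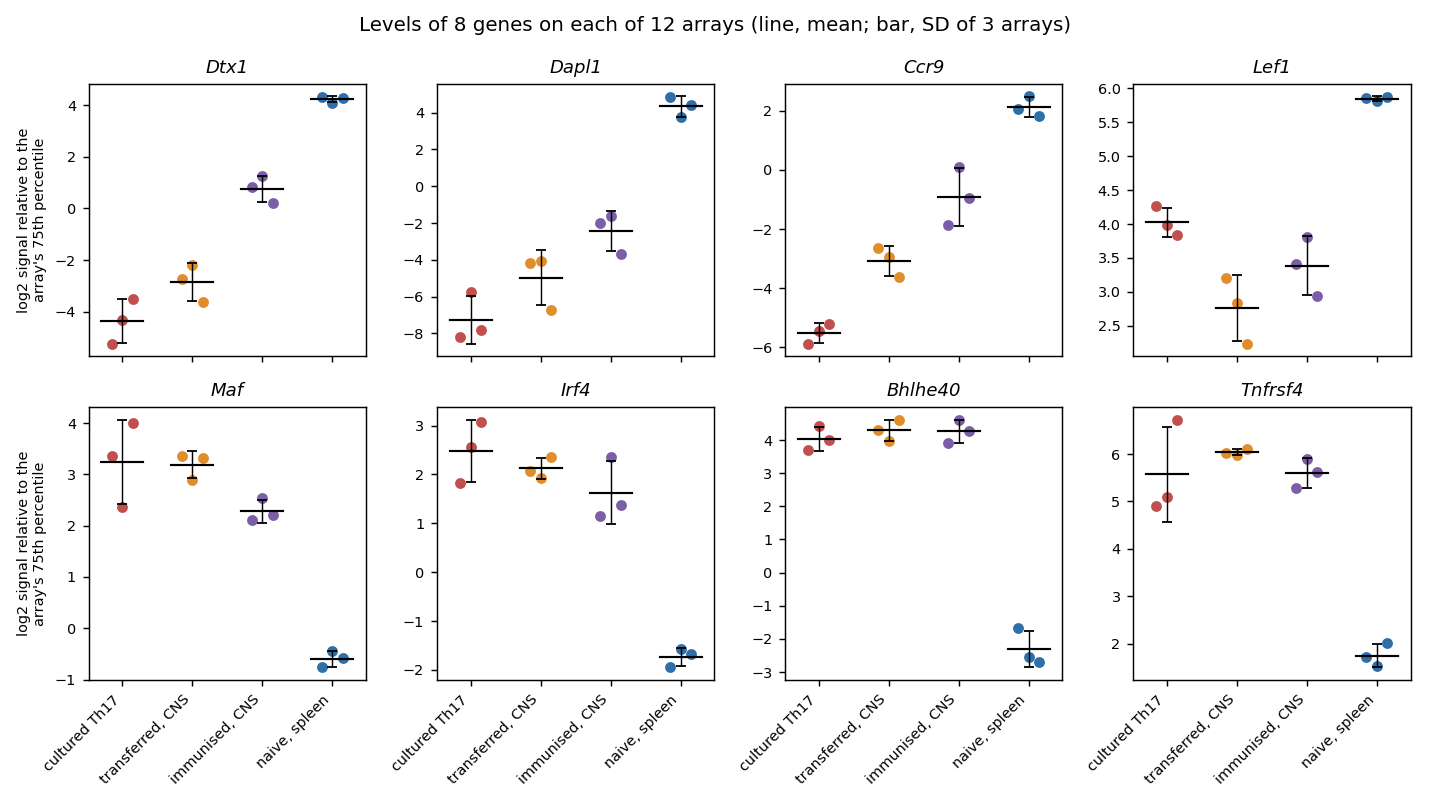
Log2 level relative to the array's 75th percentile (vertical axis) of 8 genes on each array, in cultured, transferred, immunised and naive cells from left to right; points are arrays, lines means and bars the SD of 3 arrays. Dtx1, Dapl1, Ccr9 and Lef1 lie highest on the 3 naive arrays, and Maf, Irf4, Bhlhe40 and Tnfrsf4 lie lowest there, with no overlap in any of the 8. All 8 belong to the class beyond naive cells in all 3 groups, whose rule requires this lack of overlap.

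Most transcription factors of the naive state were lower, though not to the same depth in each group. Of 20 such genes, 16 were called lower and 1 higher (2 without cultured replicate 1 or naive replicate 3), and 10 lay below naive cells in all 3 groups (5 without naive replicate 3). The list's median difference was −1.58, against −0.15 for all genes. Lef1, a TCF family factor, had levels of 4.26, 3.98 and 3.83 in cultured Th17 cells, 3.197, 2.83 and 2.23 in transferred cells, 3.405, 3.81 and 2.94 in the immunised group and 5.86, 5.81 and 5.88 in naive cells, a mean fall of 2.46 ± 0.222 (SE; limma adjusted p = 1.15e-05). Foxp1, which keeps naive cells quiescent, lay at 1.74, 1.09 and 0.34 in cultured Th17 cells, 2.85, 2.22 and 1.96 in transferred cells, 2.62, 2.94 and 2.39 in the immunised group and 4.94, 4.82 and 4.76 in naive cells. The naive arrays stood in a narrow band for both genes and no experienced array reached it.

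Tcf7, which encodes TCF1, had levels of 3.02, 2.75 and 0.41 in cultured Th17 cells, 2.53, 1.99 and 0.75 in transferred cells, 1.43, 2.14 and 0.84 in the immunised group and 4.39, 3.96 and 4.25 in naive cells. It was lower in every experienced group, and the third replicate was the lowest of each experienced group. Its call in all 3 groups was lost without cultured replicate 3, naive replicate 1 or naive replicate 3. Id3, an inhibitor of E proteins, differed by −3.07, −2.76 and −2.32, and Klf3, a Krüppel-like repressor, by −6.32, −2.57 and −1.87, with Klf3 leaving the class without immunised replicate 3. Bach2, a repressor of effector genes, differed by −0.88, −2.06 and −3.73 and was the least firm of the named factors, since it left the class without any 1 of 8 arrays.

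Not every naive factor was lower in every group. Klf2, which controls S1pr1, had levels of 1.701, 0.85 and −0.38 in cultured Th17 cells, 5.27, 4.14 and 5.06 in transferred cells, 5.04, 5.65 and 4.82 in the immunised group and 6.91, 5.21 and 5.76 in naive cells. Cultured cells were far below naive cells (−5.24; adjusted p = 5.64e-05), while the transferred and immunised groups differed by −1.14 and −0.79 (adjusted p = 0.121 and 0.266). Satb1, a chromatin organiser, ran the other way, at 5.41, 5.12 and 5.51 in cultured Th17 cells, 3.95, 3.205 and 3.08 in transferred cells, 2.77, 3.43 and 2.45 in the immunised group and 4.89, 5.01 and 5.01 in naive cells. Its difference in cultured cells was 0.38 (adjusted p = 0.311), against −1.56 and −2.09 in transferred and immunised cells (adjusted p = 0.00119 and 0.000209). The F test among experienced groups gave 0.000348 for Klf2 and 0.000253 for Satb1 (adjusted p).

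Most receptors that steer naive cells through lymphoid organs were lower as well. Of 18 homing, egress and survival receptors, 11 were lower and 3 higher, with 8 below and 1 above naive cells in all 3 groups (2 above without naive replicate 2). Their median difference was −1.099. Among all genes tested, 30.6% were lower, 22.7% higher and 12.8% below in all 3 groups. S1pr1, the receptor that lets T cells leave lymphoid tissue, had levels of 1.57, 1.33 and 1.57 in cultured Th17 cells, 1.06, −0.62 and −0.6002 in transferred cells, 2.29, 2.795 and 1.501 in the immunised group and 3.804, 3.97 and 4.03 in naive cells. Its mean difference was −2.72 ± 0.357 (SE; limma adjusted p = 0.000123). Cd27, a costimulatory receptor of naive and memory cells, differed by −3.98, −4.08 and −3.08, with no difference among experienced groups past the F test (adjusted p = 0.268). Ccr7, the lymph node chemokine receptor, differed by −2.57, −0.82 and −2.95, and transferred replicate 1 lay within the naive range, so Ccr7 was not in the class. Il7r, the receptor for the survival cytokine interleukin-7, differed by 1.08, −0.33 and 0.44 (adjusted p of the mean contrast = 0.334). The exception among receptors was Cxcr4, the receptor for CXCL12, which was higher by 2.43, 3.06 and 3.31 in the 3 groups.

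The GIMAP GTPases, small proteins that support lymphocyte survival, were lower as a family. All 8 were called lower in the mean contrast, with a median of −1.41, and 5 lay below naive cells in all 3 groups. That 5 became 3 without transferred replicate 2, immunised replicate 1 or 3, or any naive replicate. Gimap6 had levels of 4.75, 3.75 and 4.35 in cultured Th17 cells, 4.71, 4.13 and 3.46 in transferred cells, 4.26, 4.71 and 3.98 in the immunised group and 5.98, 5.92 and 6.195 in naive cells. Gimap3 differed by −1.76, −1.93 and −1.31 and Gimap8 by −1.81, −3.02 and −1.95, while Gimap9 differed by −1.29, −1.71 and −0.78 and left the class in 6 of the 12 fits without 1 array.

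Many genes that carry the T cell receptor signal were also lower. Of 32 tested, 17 were lower and 3 higher in the mean contrast (0, 1 and 0 higher without naive replicates 1, 2 and 3), with 9 below and 0 above naive cells in all 3 groups. The shares over all genes tested were 30.6% lower, 22.7% higher and 12.8% below in all 3 groups. The list's median was −0.69, and −0.57, −1.01 and −0.62 in the cultured, transferred and immunised groups. The part of the lower T cell core signal in the CNS groups was not tested. Txk, a TEC family kinase, had levels of 1.36, 1.39 and −1.78 in cultured Th17 cells, 0.503, 0.27 and −1.599 in transferred cells, 0.98, 1.26 and 0.38 in the immunised group and 3.802, 3.96 and 3.81 in naive cells. Dgka, a diacylglycerol kinase that damps the signal, differed by −1.98, −2.84 and −2.25. Prkcq, protein kinase C theta, differed by −1.33, −1.97 and −1.69. The genes that fell thus included kinases that pass the signal on and an enzyme that damps it.

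Notch pathway genes did not move one way. Of 25 tested, 10 were higher and 10 lower, with 2 above and 4 below naive cells in all 3 groups and a median of 0.46. Of all genes tested, 9.91% lay above and 12.8% below in all 3 groups, so the counts beyond naive cells were near the general shares. Rbpj, the DNA-binding partner of Notch, had levels of 3.08, 2.76 and 4.74 in cultured Th17 cells, 2.32, 2.44 and 2.72 in transferred cells, 2.13, 2.37 and 2.08 in the immunised group and −0.31, 0.35 and −0.047 in naive cells, and Numbl, a relative of the Notch inhibitor Numb, differed by 1.64, 1.104 and 0.93. Both lay above naive cells, on the opposite side from Dtx1. Hes5, a Notch target, differed by −2.47, −1.96 and −1.85 and was well above background on 2 of 3 arrays in each experienced group.

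The quiescence list was mixed too. Of 19 tested genes, 9 were lower and 2 higher, against 30.6% and 22.7% of all genes tested, and the median was −0.397. Tsc1 and Tsc2, whose proteins together restrain the growth kinase mTORC1, differed by −1.24, −1.26 and −1.64 and by −1.799, −1.05 and −0.91. Dgkz differed by −1.19, −0.91 and −0.48, and left the class without immunised replicates 1 or 2 or naive replicates 1 or 3. Ddit4, an mTORC1 inhibitor induced by stress and low oxygen, went the other way, at 7.17, 7.62 and 7.503 in cultured Th17 cells, 5.41, 5.197 and 5.15 in transferred cells, 5.25, 5.54 and 4.98 in the immunised group and 4.08, 4.49 and 4.14 in naive cells. Cultured cells held the most Ddit4 signal, and all 9 experienced arrays lay above the naive ones.

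Among the 12 largest shared falls measured on all 12 arrays, ranked by the smallest of the 3 differences, Dntt stood first. Dntt encodes terminal transferase, which adds bases at the joins of receptor genes in developing lymphocytes, and had levels of −2.58, −3.54 and 2.51 in cultured Th17 cells, −4.35, −4.16 and −4.58 in transferred cells, −2.12, −1.06 and −1.64 in the immunised group and 4.08, 3.77 and 3.19 in naive cells. Cultured replicate 3 lay between the naive arrays and the other experienced ones, and the smallest difference was 29.6-fold. Tdrp lay at −0.66, −2.47 and −2.199 in cultured Th17 cells, 0.78, −1.87 and −1.76 in transferred cells, −1.55, −0.59 and −2.52 in the immunised group and 3.85, 3.48 and 3.64 in naive cells, and Scml4, a Polycomb-like gene, at 0.89, 0.43 and −0.904 in cultured Th17 cells, 0.28, −0.38 and −1.299 in transferred cells, −0.17, 0.28 and −1.43 in the immunised group and 3.78, 3.94 and 3.96 in naive cells. Both fell in all experienced groups by amounts that the F test did not tell apart (adjusted p = 0.613 and 0.575). The other Scml4 probe gave smaller falls, of −2.70, −2.51 and −1.82.

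Vipr1, the receptor for vasoactive intestinal peptide, which naive T cells carry, differed by −6.02, −6.08 and −3.54. Its 3 immunised arrays were at 0.59, 1.47 and 0.33 and its naive arrays at 4.49, 4.15 and 4.36. The other Vipr1 probe, well above background on all 12 arrays, gave smaller falls, of −2.29, −2.50 and −1.39. Wnt5b, a Wnt ligand, fell in each group, with levels of −3.67, −3.89 and −3.79 in cultured Th17 cells, −4.71, −4.83 and −5.58 in transferred cells, −4.68, −4.55 and −5.27 in the immunised group and 0.32, 0.39 and 0.23 in naive cells. Afp, Lypd6b, Igsf23 and Ovgp1 showed differences of −4.598, −3.88 and −3.82, of −4.502, −4.297 and −5.11, of −3.32, −4.33 and −3.45 and of −3.49, −3.27 and −3.36. Nsg2, at −4.68, −4.85 and −3.94, was uneven within groups, with cultured and transferred replicate 3 at −2.23 and −3.63, and it left the class in 6 of the 12 fits without 1 array. Trav14n-1, a T cell receptor variable segment, differed by −3.96, −5.24 and −5.298, but near-identical segments exist that its probe may also detect, so the value is uncertain for the segment itself.

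Some naive genes fell to background, where only a lower bound can be given. Grm6 and Zcchc12 were not well above background on any of the 9 experienced arrays and were at least 15.9-fold and 15.2-fold lower in each group. Ampd1, AMP deaminase of muscle type, was not above background in cultured cells, and its smallest difference, in transferred cells, was 17.8-fold. Amigo2 was above background on 2, 1 and 0 of 3 cultured, transferred and immunised arrays. Jchain, the joining chain of antibodies made by plasma cells, had levels of −1.498, −1.65 and −4.57 in cultured Th17 cells, −7.71, −7.39 and −6.17 in transferred cells, −1.24, 0.77 and −3.87 in the immunised group and 4.26, 1.61 and 4.47 in naive cells. The B cell marker sums were 1.44 to 3.67 in cultured Th17 cells, 1.35 to 1.96 in transferred cells, 2.27 to 2.64 in the immunised group and 2.51 to 4.7 in naive cells, and their part in the Jchain difference was not tested.

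**Figure D3:**
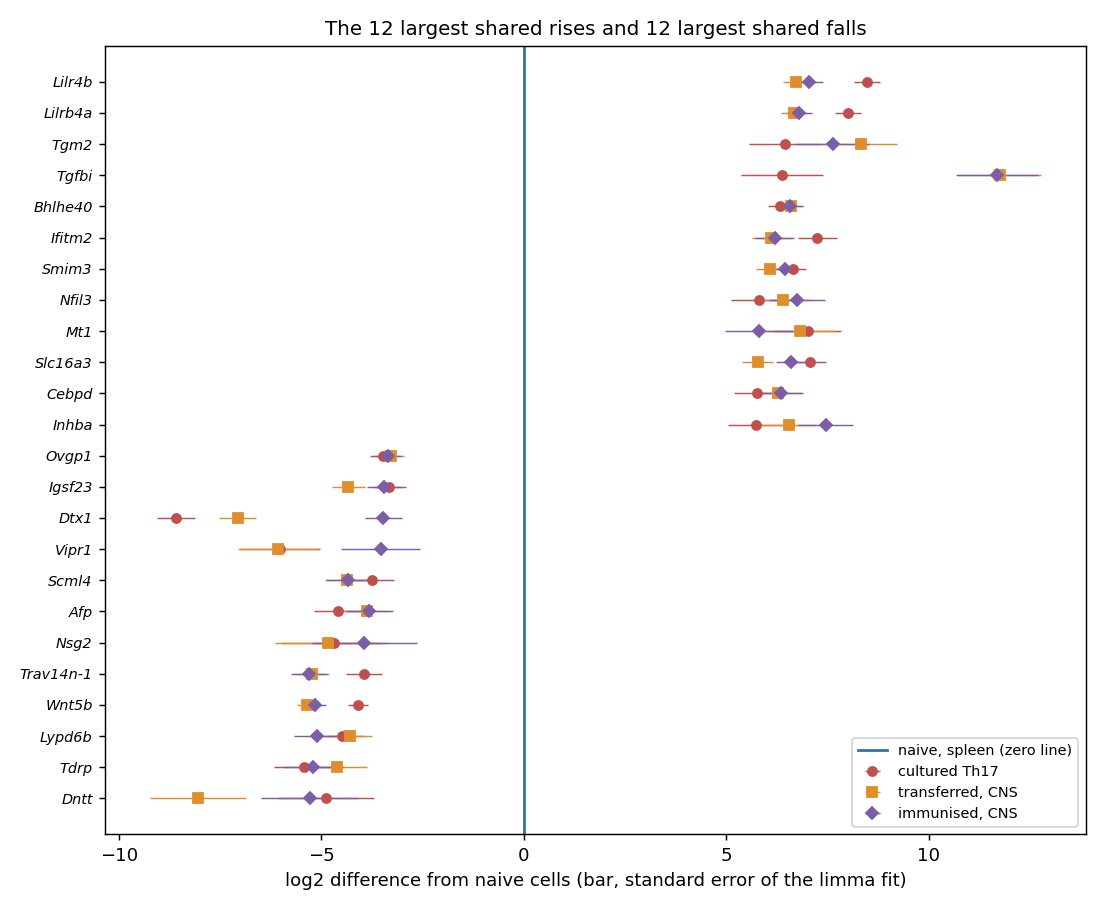
Log2 difference from naive cells (horizontal axis) for the 12 largest shared rises and 12 largest shared falls measured on all 12 arrays; points are the cultured, transferred and immunised groups, bars the standard error of the limma fit, and the vertical line is the naive level. The rises lie at 5.74 or more in every group, and the falls between −8.59 and −3.27.

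Most effector transcription factors were higher. Of 31 effector transcription factors, 22 were higher and 1 lower, with 19 above and 0 below naive cells in all 3 groups. Their median difference was 2.51, against −0.15 for all genes. Bhlhe40, needed for pathogenic cytokine production by T cells in EAE, had levels of 3.69, 4.41 and 3.99 in cultured Th17 cells, 4.32, 3.97 and 4.599 in transferred cells, 3.903, 4.62 and 4.26 in the immunised group and −1.68, −2.54 and −2.71 in naive cells. The 9 experienced arrays spanned less than 1 log2 unit and all lay far above the naive ones, by 6.504 ± 0.255 on average (SE; limma adjusted p = 9.49e-08), with no difference among the experienced groups past the F test (adjusted p = 0.726).

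Nfil3, a basic leucine zipper factor, lay at 2.87, 3.04 and 5.88 in cultured Th17 cells, 4.03, 4.83 and 4.69 in transferred cells, 4.89, 4.43 and 5.28 in the immunised group and −1.26, −2.56 and −1.84 in naive cells. Fosl2, an AP-1 subunit, had levels of 2.38, 3.39 and 3.23 in cultured Th17 cells, 2.28, 2.87 and 2.99 in transferred cells, 3.13, 2.97 and 3.25 in the immunised group and −2.45, −3.09 and −3.005 in naive cells. Neither differed among experienced groups at the F test (adjusted p = 0.513 and 0.491), and both rose by 56.3-fold and 47.2-fold in the group with the smallest change. Batf3, an AP-1 partner that dendritic cells also use, differed by 8.61, 7.78 and 5.39. Batf, its relative and a pioneer factor of Th17 cells, was already high in naive cells, at 3.93, 4.15 and 5.57 in cultured Th17 cells, 2.54, 2.47 and 2.46 in transferred cells, 2.903, 3.39 and 2.903 in the immunised group and 2.1005, 2.31 and 1.99 in naive cells. In the transferred and immunised groups Batf differed by 0.35 and 0.93 (adjusted p = 0.446 and 0.052), so it was not in the class.

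Other factors with a part in Th17 cells were above naive cells in every group. Rora, a nuclear receptor, differed by 2.53, 1.604 and 3.32 and Ahr, the aryl hydrocarbon receptor, by 1.34, 2.59 and 2.24. Prdm1, which encodes Blimp-1, differed by 2.34, 1.96 and 2.76, and Id2, an inhibitor of E proteins, by 4.27, 3.38 and 3.45. Id2 rose where its relative Id3 fell, on every experienced array against every naive array.

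Foxp3, the factor of regulatory T cells, and Tbx21, the gene of T-bet and a Th1 factor, were not in the class. Foxp3 had levels of −3.505, −3.89 and −2.86 in cultured Th17 cells, −3.76, −2.57 and −1.52 in transferred cells, 1.36, 2.08 and 1.45 in the immunised group and −1.16, −1.66 and −0.62 in naive cells. It was lower than naive cells in the cultured and transferred groups and higher in the immunised group, although transferred replicate 3 lay within the naive range. Tbx21 lay at 0.96, 1.004 and −1.91 in cultured Th17 cells, 1.71, 1.25 and 0.905 in transferred cells, 1.51, 1.62 and 1.36 in the immunised group and −2.0002, −1.11 and −1.61 in naive cells, with cultured replicate 3 within the naive range. Its differences were 1.59, 2.86 and 3.07 (adjusted p = 0.0727, 0.00417 and 0.00289).

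Some of these genes have an AP-1 motif close to their start site. AP-1 sites were searched as TGANTCA on both strands in RefSeq promoter windows from 250 bases before to 50 bases after each gene's start (GRCm38.p6). The motif was in 8.21% of 1620 promoters of genes above naive in all 3 groups, 4.70% of 1914 promoters of genes below, 5.73% of 14651 promoters of all genes tested and 7.81% of all 32851 promoters. A promoter was found for 1245 of the 1847 and 1516 of the 2382 genes. The share among higher genes was thus above that of the genes tested and near that of all promoters. The NF-kB, TCF/LEF, KLF, RBPJ and IRF motifs were in 28.0%, 2.10%, 66.7%, 24.1% and 2.90% of promoters of higher genes, against 25.3%, 2.61%, 62.7%, 23.5% and 3.32% of those of all genes tested. A match is a description of the letters and not evidence of binding. The windows of 30 bases below, 5′ to 3′ on the gene's strand with the AP-1 match in capitals, belong to higher genes described in this section: the cytokine gene Il17a, the factor Prdm1, the inhibitory receptor Havcr2, the ligand Tnfsf14, the membrane protein Emp1 and the uridine phosphorylase Upp1.
Il17a (chr1:20730655-20730684, plus strand): tgatacTGAATCAcagcaaagcatctctgt
Prdm1 (chr10:44458778-44458807, minus strand): gctggtaggagTGAATCAgaccgtcagtat
Havcr2 (chr11:46454720-46454749, plus strand): ttcctttttgtTGATTCAtgtaataaacct
Tnfsf14 (chr17:57194323-57194352, minus strand): tccatcccaccTGAGTCAcattttctggaa
Emp1 (chr6:135362775-135362804, plus strand): gtctgtgtgtcTGAGTCAgagggagctaca
Upp1 (chr11:9117952-9117981, plus strand): gactgaatgaaTGAGTCAtttcccctactg
The matches start 244, 48, 200, 160, 145 and 45 bases before the start site in that order. The lower genes Ovgp1 and Wnt5b also have a match, 98 and 191 bases before the start site.

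Most surface receptors of activation were higher in the mean contrast, fewer of them in each group on its own. Of 20 activation and costimulatory receptors, 15 were higher and 0 lower, with 9 above naive cells in all 3 groups and a median of 2.37. Among all genes tested, 22.7% were higher, 30.6% lower and 9.91% above in all 3 groups. Cd44, the hyaluronan receptor that marks experienced T cells, had levels of 2.55, 2.12 and 2.31 in cultured Th17 cells, 2.42, 2.38 and 3.11 in transferred cells, 3.19, 3.17 and 3.03 in the immunised group and −0.298, −1.31 and −0.64 in naive cells. On this probe the 9 experienced arrays stood together, and the F test among them gave an adjusted p of 0.0941. Other Cd44 probes, well above background on all 12 arrays, differed by 1.14, 1.27 and 1.16 in cultured cells, against 3.08 for the probe used. In the same order they differed by 2.10, 3.27 and 4.22 in transferred cells and by 2.60, 2.43 and 3.34 in the immunised group. On these probes both CNS groups thus lay above culture. Tnfrsf4, which encodes the costimulatory receptor OX40, lay at 4.896, 5.09 and 6.73 in cultured Th17 cells, 6.03, 5.98 and 6.11 in transferred cells, 5.28, 5.896 and 5.62 in the immunised group and 1.71, 1.52 and 2.01 in naive cells. Its smallest difference was 14.2-fold.

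Il2ra, the alpha chain of the interleukin-2 receptor, differed by 5.5999, 2.88 and 3.101, highest in culture (F test adjusted p = 0.0001). Il2rb, the beta chain, differed by 4.34, 3.26 and 3.81, and Icos, a costimulatory receptor, by 2.76, 2.15 and 3.67. Tnfsf14, the ligand LIGHT, whose promoter window is shown above, had levels of 0.71, 1.64 and 2.19 in cultured Th17 cells, 1.001, 1.62 and 1.86 in transferred cells, 1.84, 1.52 and 1.45 in the immunised group and −1.58, −2.12 and −1.43 in naive cells, and no difference among the experienced groups passed the F test (adjusted p = 0.962). Cd69, an early activation receptor, broke the pattern, with levels of −0.36, 0.56 and −1.697 in cultured Th17 cells, 3.71, 2.77 and 3.08 in transferred cells, 3.93, 4.56 and 3.93 in the immunised group and 3.12, 0.79 and 1.15 in naive cells. It was below naive cells in culture (−2.19; adjusted p = 0.0216) and above them in the immunised group (2.45; adjusted p = 0.0101).

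Most inhibitory receptors were higher as well. Of 16 coinhibitory receptors, 11 were higher and 3 lower, with 5 above and 2 below naive cells in all 3 groups and a median of 1.73. Among all genes tested, 22.7% were higher and 30.6% lower. The class held 9.91% above and 12.8% below, so the count below was near the general share. The 2 below, Btla and Cd244a, became 1 without cultured replicate 3, any transferred replicate or naive replicate 2, and 0 without naive replicate 3. Ctla4, which competes with CD28 for its ligands, had levels of 3.94, 4.297 and 3.395 in cultured Th17 cells, 2.55, 2.29 and 2.01 in transferred cells, 2.39, 3.005 and 2.39 in the immunised group and −2.17, −2.95 and −2.25 in naive cells. Havcr2, which encodes TIM-3, lay at 1.03, 1.44 and −0.91 in cultured Th17 cells, 0.796, 1.16 and 0.996 in transferred cells, 1.07, 1.09 and 1.58 in the immunised group and −7.19, −5.41 and −6.57 in naive cells, and was well above background on 1 of 3 naive arrays, so no fold is given. TIM-3 is also found on macrophages, whose sums were higher in each experienced group than in naive cells, and their part was not tested.

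Lag3, which binds MHC class II, differed by 4.67, 5.71 and 4.3001. Pdcd1, which encodes PD-1, differed by 1.44, 1.88 and 2.82 with cultured replicates at 0.899, 1.84 and −1.62 and naive replicates at −1.42, −1.26 and −0.53. Only the immunised group was called on its own (adjusted p = 0.00862, against 0.138 in cultured and 0.053 in transferred cells), so Pdcd1 was not in the class. Lilrb4a and Lilr4b, paired immunoglobulin-like receptors, headed the 12 largest shared rises measured on all 12 arrays, at 8.003, 6.68 and 6.81 for Lilrb4a and 8.48, 6.73 and 7.06 for Lilr4b. These 2 genes are close copies and their probes may detect both, so the values are uncertain for each gene singly. Both were highest in culture.

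Most cytokine genes were higher. Of 27 tested cytokine and granule genes, 21 were higher and 2 lower, with 10 above naive cells in all 3 groups and a median of 3.102. The shares over all genes tested were 22.7% higher, 30.6% lower and 9.91% above in all 3 groups. Prf1, the gene of perforin, lay below naive cells in all 3 groups, where 2 genes did without cultured replicate 2. Il17a, the defining cytokine of Th17 cells, had levels of 5.36, 5.45 and 2.304 in cultured Th17 cells, 1.82, 1.74 and 1.56 in transferred cells, 2.87, 4.69 and 2.58 in the immunised group and −4.96, −6.27 and −5.89 in naive cells. It was well above background on 1 of 3 naive arrays, so no fold is given, and the transferred group stood closest to naive cells.

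Il10, the gene of an anti-inflammatory cytokine, differed by 3.56, 4.53 and 5.16, was well above background on 1 naive array, and left the class without naive replicates 1 or 2. Csf1, a macrophage growth factor, differed by 4.396, 4.43 and 4.54 at levels that the F test did not tell apart (adjusted p = 0.986). Ccl3, a chemokine that both T cells and macrophages make, lay at −0.55, 2.22 and −2.59 in cultured Th17 cells, 4.71, 3.87 and 4.21 in transferred cells, 4.33, 4.54 and 5.19 in the immunised group and −4.28, −4.73 and −4.54 in naive cells. The 6 CNS arrays were higher than the 3 cultured ones (F test adjusted p = 0.00305), in step with the macrophage sums given above, whose part was not tested. Cultured replicate 3 was the lowest of its group for Il17a, Csf1 and Ccl3, and the highest for Il10.

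Cytokine receptors were less uniform. Of 24 tested, 15 were higher and 4 lower. Of these, 8 lay above naive cells in all 3 groups (5 without naive replicate 3) and 1, Ifnar1, below (2 without cultured replicates 2 or 3 or immunised replicates 2 or 3). The list median was 1.54. Among all genes tested, 22.7% were higher, 30.6% lower, 9.91% above and 12.8% below in all 3 groups. Il1r2, the decoy receptor for interleukin-1, had levels of 4.59, 5.62 and 4.61 in cultured Th17 cells, 1.52, 1.49 and −0.1 in transferred cells, 3.91, 3.46 and 3.76 in the immunised group and −5.37, −4.01 and −3.68 in naive cells, and was above background on 2 of 3 naive arrays. Il1r1, the signalling receptor, differed by 6.12, 2.599 and 4.54 and left the class without any 1 of 9 arrays. Csf2rb, the shared beta chain of the GM-CSF and interleukin-3 receptors, differed by 4.37, 7.55 and 8.08, with the CNS groups above culture (F test adjusted p = 0.000769). Its other probe, well above background on all 12 arrays, gave 0.74, 3.44 and 3.96.

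Most chemokine receptors of inflamed tissue were higher, while most lymphoid homing receptors were lower. Of 13 tested chemokine receptors, 9 were higher and 0 lower, 6 of them above naive cells in all 3 groups, and the median was 3.13. Cxcr6, a receptor of tissue-homing T cells, had levels of 6.22, 6.78 and 5.27 in cultured Th17 cells, 3.88, 4.003 and 4.19 in transferred cells, 5.698, 6.101 and 5.49 in the immunised group and 0.29, 1.05 and 0.71 in naive cells. Ccr2, which binds CCL2 and is used by both monocytes and Th17 cells, lay at 4.196, 3.97 and 2.36 in cultured Th17 cells, 1.16, 1.74 and 2.19 in transferred cells, 3.46, 3.13 and 2.82 in the immunised group and −3.05, −2.001 and −2.12 in naive cells. Cultured replicates 1 and 2 had the highest Ccr2 levels, and the part of monocytes was not tested. Ccr8, another chemokine receptor, differed by 3.42, 6.397 and 5.83 and was well above background on 2 of 3 naive arrays.

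Of 21 tested integrins and selectin ligand genes, 14 were higher and 3 lower, with 5 above naive cells in all 3 groups (8 without cultured replicate 3) and a median of 1.24. The shares over all genes tested were 22.7% higher, 30.6% lower and 9.91% above in all 3 groups. Itgav, the alpha V chain, had levels of −0.51, −0.12 and −0.089 in cultured Th17 cells, −0.86, −1.05 and −0.12 in transferred cells, −1.17, −1.002 and −0.79 in the immunised group and −2.81, −2.47 and −2.37 in naive cells. Alcam, a ligand of CD6, differed by 5.02, 4.12 and 4.65 with 1 of 3 naive arrays above background. On naive arrays Itga3 and Fut4 stayed in the background, and they were at least 4.87-fold and 4.94-fold higher in each group.

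Most structural genes of migrating and activated cells were higher. Of 26 S100, annexin, galectin and cytoskeletal genes, 20 were higher and 1 lower (0 lower without naive replicates 1 or 3), with 15 above naive cells in all 3 groups and a median of 2.62. Tubb6, a beta tubulin, had levels of 3.35, 3.26 and 4.28 in cultured Th17 cells, 3.07, 3.23 and 4.25 in transferred cells, 3.36, 2.86 and 4.02 in the immunised group and −5.66, −4.38 and −3.75 in naive cells. The experienced arrays stood together (F test adjusted p = 0.935), and Tubb6 was above background on 2 of 3 naive arrays. Lgals3, which encodes galectin-3 and is also abundant in macrophages, differed by 5.61, 7.27 and 6.88, and the part of macrophages was not tested. Anxa4 and Emp1 differed by 4.16, 5.92 and 5.199 and by 4.95, 5.304 and 4.87.

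Glycolysis genes had the largest share of members above naive cells in all 3 groups among the 22 lists plotted below. Of 25 glycolysis and hypoxia genes, 21 were higher and 1, Pdk1, lower, with 19 above naive cells in all 3 groups and a median of 1.82. Hk2, the inducible hexokinase that catalyses the first step, had levels of 1.96, 2.44 and 2.51 in cultured Th17 cells, 1.65, 2.07 and 2.596 in transferred cells, 1.86, 1.53 and 2.67 in the immunised group and −5.71, −4.68 and −5.39 in naive cells. Its naive levels were near background, with 2 of 3 arrays above it. Tpi1, triose phosphate isomerase, lay at 5.38, 6.08 and 6.54 in cultured Th17 cells, 4.58, 5.37 and 5.57 in transferred cells, 5.19, 4.75 and 5.62 in the immunised group and 1.37, 1.13 and 1.39 in naive cells. Slc16a3, the lactate exporter MCT4, differed by 7.08, 5.77 and 6.603, and Vegfa, a hypoxia-induced growth factor, by 5.97, 8.697 and 8.62. Pdk1, which holds pyruvate back from oxidation within the mitochondria, was the one member below naive cells in all 3 groups, at −1.63, −3.04 and −2.72.

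Most cell cycle genes were higher. Of 34 tested, 28 were higher and 0 lower, with 20 above naive cells in all 3 groups and a median of 1.89. Top2a, a topoisomerase of dividing cells, had levels of 1.901, 1.41 and 1.87 in cultured Th17 cells, 0.903, 1.403 and 0.79 in transferred cells, 0.52, 0.69 and 0.92 in the immunised group and −2.52, −1.09 and −1.44 in naive cells, and E2f1, a factor of S phase entry, differed by 2.39, 3.04 and 2.55. Cdkn1a and Cdkn2a, which encode inhibitors of the cycle, were also above naive cells in all 3 groups. Cdkn1a, which encodes p21, lay at 2.38, 2.78 and 3.18 in cultured Th17 cells, 1.796, 2.18 and 2.99 in transferred cells, 2.23, 1.71 and 3.02 in the immunised group and −6.74, −5.599 and −5.999 in naive cells and was above background on 1 of 3 naive arrays, so no fold is given. Its other 2 probes gave smaller differences, of 3.69, 4.74 and 4.99 and of 5.76, 2.995 and 1.09. Cdkn2a differed by 5.42, 2.97 and 2.52. Its other probe, well above background on 3 arrays only, gave 3.20, 0.093 and 0.069.

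Biosynthetic genes were mixed. Of 26 nucleotide, amino acid and one-carbon genes, 11 were higher and 6 lower, with a median of 0.46. The shares over all genes tested were 22.7% higher and 30.6% lower. Above naive cells in all 3 groups lay 6, and below lay 2, Gart and Slc38a2, or 4 without cultured replicate 1 and 1 without transferred replicate 3, any immunised replicate or naive replicates 1 or 2. Asns, asparagine synthetase, had levels of 2.14, 2.09 and 3.22 in cultured Th17 cells, 2.99, 3.34 and 4.19 in transferred cells, 1.901, 2.13 and 2.16 in the immunised group and −3.64, −1.49 and −0.48 in naive cells. Odc1, which starts polyamine synthesis, differed by 3.71, 3.13 and 3.61 and Tk1, thymidine kinase, by 3.02, 2.85 and 2.25. Upp1, uridine phosphorylase, differed by 7.95, 4.45 and 5.67 and was highest in culture (F test adjusted p = 0.000373).

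Cholesterol synthesis and interferon-stimulated genes were not shared across the experienced groups. Of 23 cholesterol genes, 14 were higher and 0 lower in the mean contrast (7 higher without naive replicate 2 and 9 without naive replicate 3), but only 1, Pmvk, lay above naive cells in all 3 groups (0 to 2 when 1 array was left out). The list medians were 1.95, −0.24 and 0.073 in the cultured, transferred and immunised groups. Of 24 interferon-stimulated genes, 6 were lower and 1 higher (0 to 2 when 1 array was left out), and 0 lay beyond naive cells in all 3 groups. Of all genes tested, 30.6% were lower and 22.7% higher, so lower calls were no more frequent than in general. The medians of the interferon-stimulated genes were −1.91, −0.074 and 0.602, so that cultured cells stood below and immunised cells above naive cells. The difference between groups was not tested for either list as a whole.

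Of 24 apoptosis and survival genes, 15 were higher and 1 lower (2 without cultured replicate 2), with 11 above naive cells in all 3 groups and a median of 0.95. They included genes for both outcomes. Among all genes tested, 22.7% were higher, 30.6% lower and 9.91% above in all 3 groups. Pmaip1, which encodes the death-promoting protein NOXA, had levels of 2.06, 3.99 and 0.89 in cultured Th17 cells, 2.88, 2.61 and 2.28 in transferred cells, 2.395, 3.001 and 2.91 in the immunised group and −1.09, −1.94 and −1.83 in naive cells. Gadd45g, a stress sensor, differed by 3.66, 3.17 and 3.19 and Casp4, which encodes caspase-11, by 2.71, 2.603 and 2.97. Bcl2a1d, a survival gene, differed by 2.37, 4.91 and 5.396, but it has near-identical copies that its probe may detect, and it left the class without cultured replicates 1 or 2.

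Most feedback regulators of signalling were higher. Of 25 tested, 20 were higher and 1 lower (0 without any 1 of 9 arrays), with 6 above naive cells in all 3 groups and a median of 1.41. Cish, a STAT5 target that damps cytokine signals, had levels of 4.65, 4.97 and 5.61 in cultured Th17 cells, 4.38, 4.34 and 4.57 in transferred cells, 4.61, 4.72 and 4.61 in the immunised group and 0.89, 0.15 and 0.44 in naive cells. Socs2, a relative, differed by 5.57, 5.39 and 4.32. Dusp4 and Dusp14, phosphatases that act on MAP kinases, differed by 4.04, 6.67 and 6.22 and by 2.75, 3.13 and 3.58. No difference among experienced groups passed the F test for Cish, Socs2 and Dusp14 (adjusted p = 0.143, 0.0547 and 0.279), while it did for Dusp4 (adjusted p = 0.0289).

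Chromatin enzymes were called about as often as genes in general. Of 25 tested, 5 were higher and 8 lower (5 without naive replicate 2), with 3 above (1 without transferred replicate 3) and 4 below naive cells in all 3 groups, against 22.7% higher, 30.6% lower, 9.91% above and 12.8% below of all genes tested. The median was −0.31. Uhrf1, which maintains DNA methylation at replication, had levels of 3.54, 2.97 and 2.81 in cultured Th17 cells, 2.61, 3.01 and 2.86 in transferred cells, 1.299, 1.62 and 1.98 in the immunised group and −0.35, 0.35 and 0.904 in naive cells. Chd3, a chromatin remodeller of the NuRD complex, lay at 3.95, 3.99 and 2.81 in cultured Th17 cells, 3.49, 3.38 and 3.17 in transferred cells, 3.68, 4.61 and 3.15 in the immunised group and 5.82, 6.09 and 6.23 in naive cells. Tet1, which oxidises methylated cytosine, differed by −1.34, −1.804 and −1.69, and Kmt2a, a histone methyltransferase, by −0.99, −0.97 and −1.32.

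**Figure D4:**
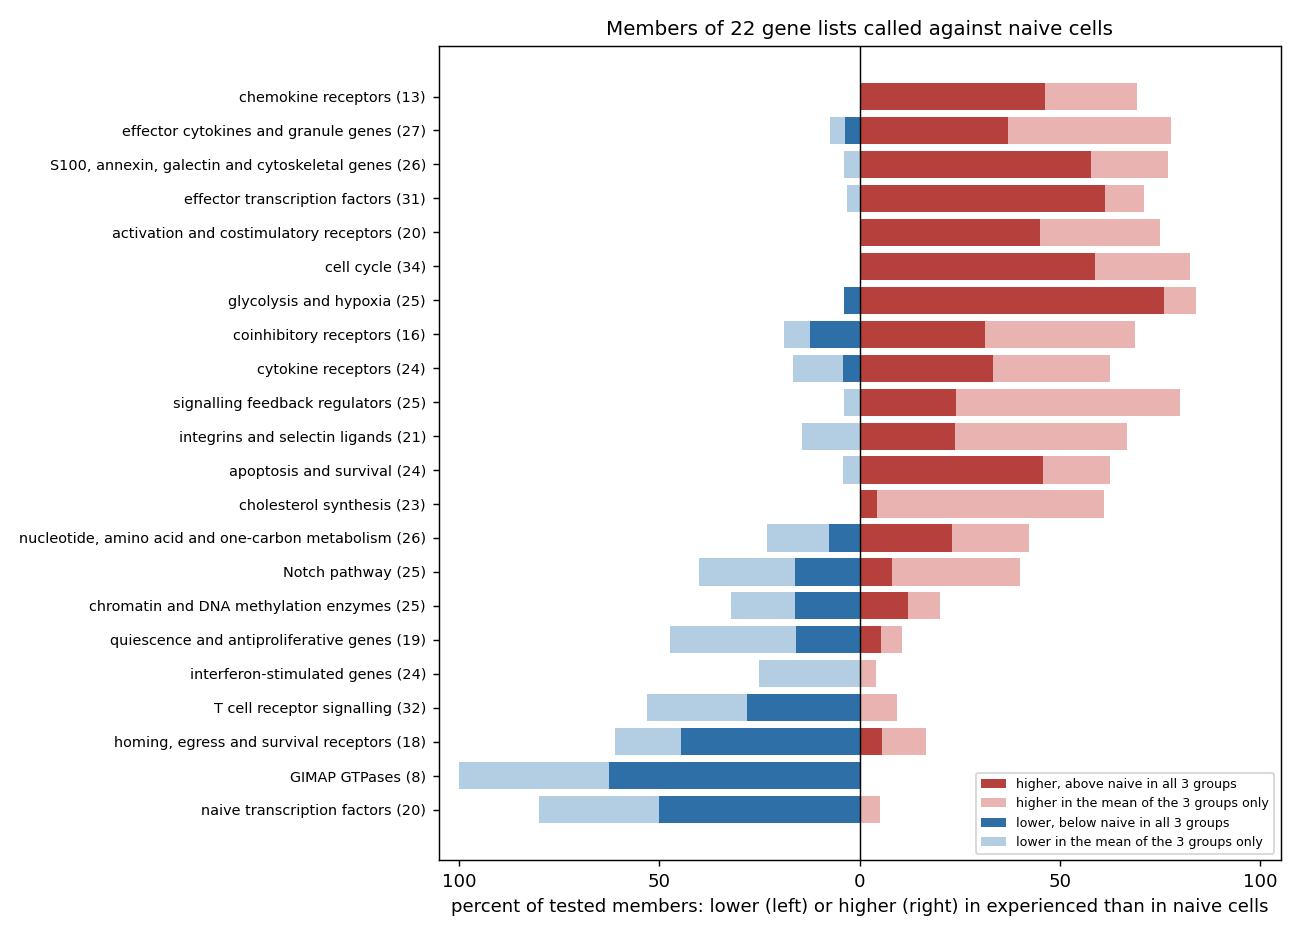
Percent of the tested members of 22 gene lists called lower (left) or higher (right) in experienced than in naive cells, with the number tested in brackets; dark bars are genes beyond naive cells in all 3 groups and pale bars genes called only in the mean of the 3 groups. Of all genes tested, 22.7% were called higher and 30.6% lower, and 9.91% and 12.8% lay above and below naive cells in all 3 groups.

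The largest shared rises outside these lists included genes that macrophages share. Tgm2, a transglutaminase, had levels of 2.84, 3.61 and 5.86 in cultured Th17 cells, 5.56, 5.41 and 6.8999 in transferred cells, 5.42, 4.33 and 6.06 in the immunised group and −2.44, −0.77 and −3.88 in naive cells. Tgfbi, a matrix protein gene, lay at 1.81, 4.59 and −0.75 in cultured Th17 cells, 6.71, 7.56 and 7.49 in transferred cells, 7.48, 6.51 and 7.56 in the immunised group and −4.88, −3.83 and −4.801 in naive cells, with the CNS groups far above culture (F test adjusted p = 0.00338) and cultured replicate 3 the lowest. Inhba, which encodes a subunit of activin A, differed by 5.74, 6.54 and 7.45, and Cebpd, a factor of inflammatory responses, by 5.75, 6.29 and 6.34. Neither differed among the experienced groups at the F test (adjusted p = 0.157 and 0.606). Mt1, a metallothionein, lay at 6.199, 6.03 and 8.16 in cultured Th17 cells, 6.49, 6.62 and 6.75 in transferred cells, 5.63, 5.095 and 6.08 in the immunised group and −2.36, 0.37 and 1.35 in naive cells. Its other probe gave smaller differences, of 3.03, 5.29 and 4.60. Ifitm2, an interferon-inducible membrane protein, differed by 7.25, 6.12 and 6.197, and Smim3 by 6.65, 6.08 and 6.45.

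Among genes above naive cells in all 3 groups, 303 were not well above background on any naive array. Among those with the largest bounds, Stab1, a scavenger receptor, was at least 143-fold higher in each group, Ier3 at least 104-fold, Ccl6 at least 71.6-fold and Dab2 at least 64.7-fold. Stab1 had levels of 2.17, 2.55 and 0.014 in cultured cells and Dab2 of 1.297, 2.79 and −2.97, so both were lowest in cultured replicate 3 and highest in replicate 2. The same order held in culture for the macrophage gene Cd14, at −0.87, 0.896 and −3.202, and for Fcer1g, at 0.75, 2.13 and −0.81. It also held for Il17a and Pdcd1, whose levels are given above, so it was not particular to macrophage genes. Both Cd14 and Fcer1g were higher again in the transferred group, by 11.21 and 8.04, and in the immunised group, by 11.94 and 8.21. The part of macrophage RNA in Stab1, Dab2 and the other genes with large bounds was not tested.

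Other marker lists gave fewer shared genes. Of 8 microglia genes 6 were higher, and Tmem119 lay above naive cells in all 3 groups, at −3.73, −2.55 and −1.79 in cultured Th17 cells, 1.31, 1.37 and 1.298 in transferred cells, 0.81, 1.22 and 1.95 in the immunised group and −5.49, −5.67 and −5.44 in naive cells. Of 10 neutrophil genes 9 were higher and 1 lower, with S100a8 differing by 3.02, 5.98 and 10.03. Mmp8 and Cxcr2, not above background in naive cells, were at least 8.7-fold and 7.32-fold higher. Of 6 tested dendritic cell genes 4 were higher, Itgax by 5.39, 9.25 and 8.35. Cd8b1, a chain of the CD8 receptor that CD4+ T cells should lack, was lower by 2.65, 3.72 and 2.64, with naive levels of 1.08, 0.69 and 0.33. Of 7 tested CD8 and NK cell genes it was the 1 called lower (2 without transferred replicate 2). The list had 3 higher (1 without naive replicate 2), and Cd8a was not called. It summed to 2.84 to 11.6 in cultured, 6.91 to 17.4 in transferred, 23.1 to 27.5 in immunised and 5.60 to 9.39 in naive cells. Klre1, of the NK cell list, was not above background in naive cells and at least 1.26-fold higher.

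Of 11 tested B cell genes 5 were lower and 0 higher (3 lower without naive replicates 1 or 3), and Cr2 lay below naive cells in all 3 groups at −1.73, −2.32 and −1.96, while its other probe gave −0.21, 0.13 and −0.21. Pf4, a platelet gene that macrophages can share, differed by 4.34, 10.22 and 7.56. Of 11 tested neural and glial genes 4 were higher and 3 lower, with Mbp and Cnp below naive cells in all 3 groups, Mbp lost without immunised replicate 3. Of all genes tested, 22.7% were higher and 30.6% lower. Mbp differed by −1.04, −1.29 and −0.84, and 1 other probe gave −0.97, −0.89 and −0.88, but the third gave −0.33, 1.97 and 2.04, so its probes disagreed. The median of the neural and glial list was −0.0027 and changed sign with the scaling.

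Within the class the lost genes were more alike between groups than the gained ones. The moderated F test among the 3 experienced groups was called for 35.0% of all genes tested (6527). It was called for 48.8% of the genes above naive in all 3 groups (901), for 21.6% of those below (514) and for 35.5% of genes in neither class. The means of the 3 groups lay within 0.5 log2 units of each other for 379 of the 1847 higher genes and 1154 of the 2382 lower genes. The differences themselves were also smaller among lower genes, since 792 of the higher and 362 of the lower genes differed by 4-fold or more in every group, and 1439 and 1235 by 2-fold or more. Of the lower genes, 295 were not well above background on any array of at least 1 experienced group. The part of background, and of macrophage and neutrophil genes among the higher ones, in the unlike spread was not tested. The smallest of the 3 differences lay in the cultured, transferred and immunised group for 675, 544 and 628 of the higher genes and for 1172, 506 and 704 of the lower genes.

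**Figure D5:**
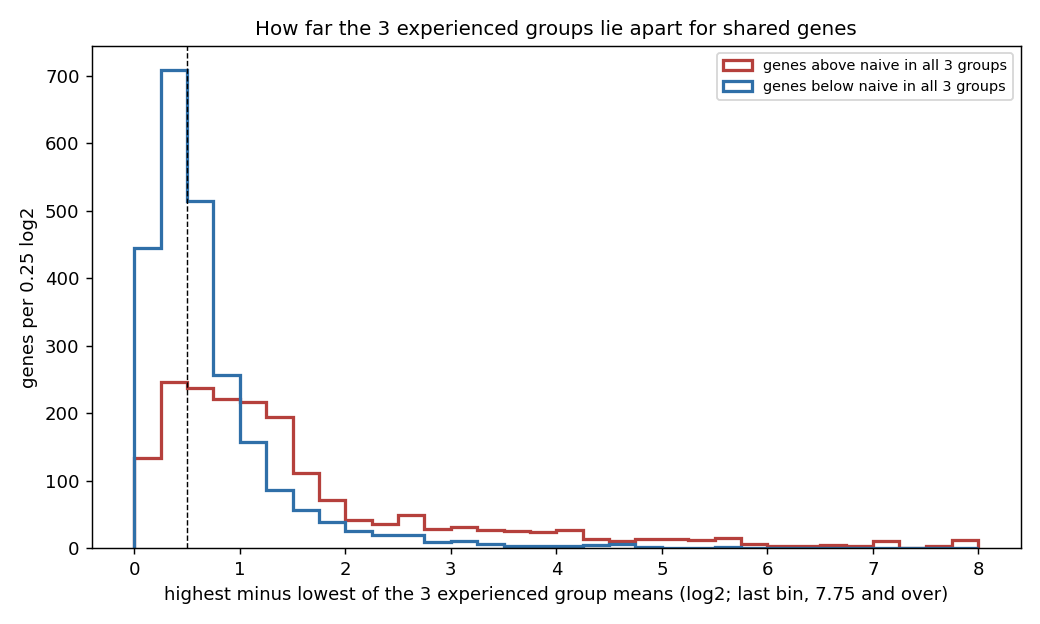
Number of genes (vertical axis) by the highest minus the lowest of the 3 experienced group means in log2 units (horizontal axis), for genes above and below naive cells in all 3 groups. The dashed line marks 0.5, left of which lie 379 of 1847 higher and 1154 of 2382 lower genes.

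The genes with the smallest spread among experienced groups, all changed by 4-fold or more, serve as examples of a level reached in common. Rilpl2, which links Rab proteins to motors, had levels of 2.49, 2.91 and 2.59 in cultured Th17 cells, 2.73, 2.903 and 2.503 in transferred cells, 2.47, 2.91 and 2.84 in the immunised group and 0.55, −0.023 and 0.083 in naive cells. Rhoc, a small GTPase of migrating cells, differed by 4.25, 4.16 and 4.19, Sytl3, of vesicle transport, by 3.04, 2.98 and 3.02, and Espl1, the separase that splits sister chromatids, by 2.97, 2.92 and 3.01. The other Rhoc probe, well above background on all 12 arrays, gave 2.20, 2.30 and 2.45. On the lost side, Znrf3, a ligase that removes Wnt receptors, lay at −3.42, −3.49 and −3.28 in cultured Th17 cells, −3.09, −3.62 and −3.68 in transferred cells, −3.55, −3.16 and −3.73 in the immunised group and −0.299, −0.63 and −0.17 in naive cells. Rdh5, a retinol dehydrogenase, lay at −2.47, −2.36 and −2.52 in cultured Th17 cells, −2.39, −2.63 and −2.63 in transferred cells, −2.39, −2.18 and −2.63 in the immunised group and −0.0048, −0.085 and −0.203 in naive cells, Kcnh3 differed by −2.85, −2.96 and −2.97, Pitpnm2 by −2.34, −2.398 and −2.26 and Gprasp1 by −2.54, −2.72 and −2.698. These genes were chosen for their small spread, so their likeness is a description.

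Of the 148 genes chosen by the naming rule that lay beyond naive cells in all 3 groups, 131 stayed in the class under each of 12 fits without 1 array and 17 left it in at least 1 fit. Besides those given above, they include Cd247, lost without cultured replicates 1 or 2 or any naive replicate, Lck without naive replicate 1, Klre1 without cultured replicate 2, Pmvk without transferred replicate 2, immunised replicate 3 or naive replicates 2 or 3, and S100a8 without cultured replicates 1 or 3 or naive replicate 3.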

How the data were processed

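Total RNA of 12 mouse samples in 4 groups of 3 was measured on 1-colour arrays. Per the labels' protocols, 100 ng of RNA was amplified and labelled with Cy3. The deposited intensity values (processed signals) came from the scanner software Agilent Feature Extraction 10.7.3.1 under protocol GE1_107_Sep09, per the file headers. It had subtracted background array by array without normalizing arrays to one another. The normalization of the deposited matrix of intensity values is not given in the sources used here, and it was an alternative only.

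On the log2 scale, the 75th percentile of non-control probes was subtracted from each array. Spots with an outlier mark (120 to 180 per array) were dropped, repeated spots were averaged, and a gene was represented by its probe of highest mean. A gene entered the tests if some group had it well above background on each of its 3 arrays (18631 genes). Names came from RefSeq accessions for 27223 of 39405 probes, current symbols for 3573 and synonyms for 565, and 8044 probes kept the file's name. Detection reached down to log2 levels of −6.05 to −5.26. Where no array of a group measured a gene, its fold is a bound that uses this level.

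One limma fit (3.58.1, R 4.3.3) over 12 arrays gave two-sided moderated tests (residual degrees of freedom 8, prior 2.46), adjusted by Benjamini-Hochberg over all genes. SE comes from this fit and SD from the 3 arrays of a group. All adjusted p-values in the text come from it. It was tested on simulated data. Alternatives covered scaling, background correction, filters, probe choice, prior, threshold, the slide as a block, each group and each array left out. The comparison, the gene lists and the rule for named genes were chosen with earlier results of these data known. By that rule the text names the 12 largest shared rises and falls, 5 bounds each way, the 5 least spread genes of 4-fold or more each way, up to 4 genes per list, the 5 markers and a set of T cell genes. Some genes the rule chose are not reported here. Genes such as Btla, Cd244a, Prf1, Ifnar1, Pdk1, Gart and Slc38a2 were named after their values were seen. Promoters were matched by symbol to a RefSeq table (GRCm38.p6). Python 3.11.15, numpy 2.4.6, pandas 2.3.3, matplotlib 3.10.9 and the R package data.table (1.17.8) were also used.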

Additional observations from a re-analysis of the deposited data

Results flagged for a closer look

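Of the named genes, 2 moved in opposite directions in different experienced groups. Cd69 was below naive cells in culture (−2.19; limma adjusted p = 0.0216) and above them in the immunised group (2.45; adjusted p = 0.0101), with 1.501 in transferred cells (adjusted p = 0.0801). The immunised difference less the cultured one was 4.64, and the moderated F test among the 3 experienced groups gave an adjusted p of 0.000887. Naive replicate 1, at 3.12, lay well above the other naive arrays for this gene. Foxp3 was below naive cells in cultured (−2.27; adjusted p = 0.00533) and transferred cells (−1.47; adjusted p = 0.0357) and above them in the immunised group (2.78; adjusted p = 0.00134). Its immunised difference less the cultured one was 5.05, with an F test adjusted p of 9.9e-05. Over all genes tested, 290 were called in opposite directions in at least 2 experienced groups with the F test also called, and 139 were called in all 3 groups without a common direction.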

How the results depend on the processing

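Directions and calls of the 159 named genes were recomputed under 26 alternatives, 4100 comparisons in all, of which 4076 kept both and 151 genes kept both throughout. Many of these genes were chosen for large differences on the same arrays, so this share does not hold for genes in general. With an adjusted p under 0.01, 1294 genes lay below naive cells in all 3 groups and 474 genes beyond naive cells differed among the experienced groups. Without the cultured group the class asks for 2 groups only, and 3206 genes lay above and 4527 below, with 443 differing among the groups left. Without 1 array, 7934 to 10970 genes were called, 3492 to 4509 higher and 4423 to 6461 lower, 1566 to 2088 lay above and 1770 to 2588 below in all 3 groups, and 980 to 1627 of those differed among groups. The fewest below were found without naive replicate 3. Scaling to the median left 1777 above and 1644 below. It kept 92.5% of the genes above and 66.5% of the genes below in the main fit.

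The Cd4 difference, near 0, changed sign to 0.065 with median scaling, 0.027 with normexp, 0.13 without transferred and 0.0297 without immunised arrays, and lay between −0.083 and 0.034 without 1 array. Cd69 was −0.34 without the immunised group. Foxp3 was 0.00079 with normexp, 0.66 without the cultured and 0.26 without the transferred group. The mean-contrast call was lost for Klf2 without the cultured group (adjusted p = 0.0695), Satb1 without the immunised group (adjusted p = 0.0523), Klre1 with normexp, Mbp with the mean over probes, and Pdcd1 in 4 settings. The causes were not tested.

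Same-numbered arrays, which share a slide, correlated in their deviations from the group means at −0.198 to 0.204, and differently numbered ones at −0.311 to 0.325, so the numbers are not shown to pair the samples. With the replicate block, 1806 genes lay above and 2287 below. Intensities near background limit what can be said of the 303 genes not measured in naive cells and of the 94 not measured on any experienced array.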
